A study of Mus musculus with 18 samples.

Results

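The mitochondrial ribosomal proteins are the nuclear-encoded proteins of the ribosome that works inside mitochondria. Their genes were taken here as all those whose symbol starts with Mrpl or Mrps and a number in the annotation of the array platform, with pseudogenes left out. There were 76 such genes, 47 with large subunit symbols and 29 with small subunit symbols, and 75 of them (46 and 29) had at least 1 probe set of their own, among 23102 genes with a value. The rule used names only and no measured value. The family itself was picked with earlier results of these arrays known, so its counts below are a description of the family beside all genes.

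J774 cells, a mouse macrophage line, were exposed for 24 h in 24-well plates, and total RNA was hybridised to 18 Affymetrix arrays, with 6 groups of 3 arrays. The groups were talc alone, talc plus estradiol, titanium dioxide (TiO2) alone, TiO2 plus estradiol, estradiol alone, and vehicle, with particles at 10 µg per well and estradiol, called estrogen in the sample labels, at 2 µg/mL. The medium of all groups lacked phenol red, a dye with weak estrogen activity, and held 10% fetal bovine serum. All 18 arrays come from 1 cell line, and no label states if a group's replicates were separate cultures, so the p-values reflect array-to-array spread, which may be technical. Array numbers run group by group, so array order and treatment cannot be told apart.

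The mitochondrial ribosome translates the few messages of the mitochondrial genome, all of them for subunits of the respiratory chain and the ATP synthase. Its RNAs are encoded in mitochondrial DNA, whereas every one of its proteins is made in the cytosol from a nuclear gene and imported. Some of the proteins have counterparts in all ribosomes, some only in bacterial ribosomes, and some are found only in mitochondria. Macrophages depend on this machinery for respiration, which shifts when they are activated.

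The label was checked against cell type markers. All 10 listed macrophage genes lay above the median gene level, with a median percentile of 98.9. With talc in the pooled comparison described below, Cd14 (0.32) and Cybb (0.37) rose and Adgre1 (-0.49) and Itgam (-0.47) fell, and the part of such shifts in the results below was not tested. Of the lists for other cell types, 0 of 6 lymphocyte, 0 of 6 granulocyte, 2 of 7 fibroblast and 2 of 6 epithelial markers lay above that median. Of these lists 1 gene passed, the fibroblast marker Pdgfra, which fell by 0.78 on the log2 scale with talc. The summed log2 level of the 7 fibroblast markers ran from 28.6 to 29.6 with talc, from 27.0 to 29.2 with talc plus estradiol, from 28.9 to 29.3 with estradiol and from 28.7 to 29.7 with vehicle. The arrays were alike in median brightness, with medians between 45.6 and 48.0 on the deposited linear intensity scale. They were less alike among bright probe sets. The upper quartile was 233.5, 231.6 and 222.2 with TiO2 and estradiol together, and between 237.9 and 249.1 in every other array. Values below are log2 intensities, and a gene's value is the mean over its probe sets. A difference of 1 on this scale is a 2-fold change.

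The promoters of 4 members that rose with talc are shown first, and motifs of factors known for mitochondrial genes were searched in them. All 4 hold a match, so they are not typical of the members that rose. Among the others, some windows held matches and some held none, such as those of Mrpl35, Mrps30, Mrps31 and Mrps10. Mrpl52 and Mrps18b had the highest talc changes among the large and the small subunit symbols, and Mrpl39 and Mrpl32 held NRF1 motifs in more than 1 position or in a palindrome. NRF1, the ETS factor GABP and YY1 are transcription factors known for binding promoters of nuclear genes for mitochondrial proteins. Each run is the 250 bases before the RefSeq start of the gene (GRCm38.p6), 5′ to 3′ on the gene's strand, and capitals mark matches to any of the 4 motifs searched. The windows are chr14:54426659-54426908, plus strand, for Mrpl52, chr17:35916441-35916690, minus strand, for Mrps18b, chr16:84735245-84735494, minus strand, for Mrpl39, and chr13:14613038-14613287, minus strand, for Mrpl32.
Mrpl52: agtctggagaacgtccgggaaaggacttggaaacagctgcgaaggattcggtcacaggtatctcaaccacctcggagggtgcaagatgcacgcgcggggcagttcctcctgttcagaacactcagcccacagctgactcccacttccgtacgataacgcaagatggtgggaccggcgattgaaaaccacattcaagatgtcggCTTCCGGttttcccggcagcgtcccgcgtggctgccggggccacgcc
Mrps18b: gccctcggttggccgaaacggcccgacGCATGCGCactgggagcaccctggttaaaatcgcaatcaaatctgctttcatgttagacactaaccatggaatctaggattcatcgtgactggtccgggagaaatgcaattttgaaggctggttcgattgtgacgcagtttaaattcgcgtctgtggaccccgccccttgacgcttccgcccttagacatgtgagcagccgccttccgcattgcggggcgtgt
Mrpl39: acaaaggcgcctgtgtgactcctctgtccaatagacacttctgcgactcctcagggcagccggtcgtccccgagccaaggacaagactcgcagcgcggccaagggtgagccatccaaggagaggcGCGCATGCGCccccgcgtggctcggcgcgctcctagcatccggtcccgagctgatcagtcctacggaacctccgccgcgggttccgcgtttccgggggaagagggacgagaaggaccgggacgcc
Mrpl32: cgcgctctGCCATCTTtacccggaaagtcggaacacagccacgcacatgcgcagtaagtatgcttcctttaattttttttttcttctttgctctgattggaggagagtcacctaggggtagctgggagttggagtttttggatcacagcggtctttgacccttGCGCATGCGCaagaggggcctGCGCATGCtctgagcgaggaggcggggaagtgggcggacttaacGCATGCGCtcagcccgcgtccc

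The motifs were GCATGCGC (NRF1 core), CCGGAAG (GABP and other ETS factors), AAGATGGC (YY1) and CACGTG (the E-box of MYC and MAX), each searched on both strands. In Mrpl52 the capitals mark an ETS match on the reverse strand, 47 bases before the start. In Mrps18b they mark an NRF1 core 223 bases before the start. In Mrpl39 a single palindromic run holds overlapping NRF1 matches on both strands, 125 and 123 bases before the start. Mrpl32 has such a palindrome 87 and 85 bases before the start, further NRF1 matches at 66 and 22 bases, and a YY1 match at 242 bases. The reading of these matches against all promoters is given after the expression values.

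Talc was accompanied by higher levels of many mitochondrial ribosomal protein transcripts and by no fall that passed the test. In the comparison of all 6 talc arrays with all 6 arrays without particles, estradiol arms pooled, 30 of 75 members rose at an adjusted p under 0.05 (limma, Benjamini-Hochberg over all 23102 genes), 21 of the large and 9 of the small subunit. That is 40.0% of the members, beside 7.92% of all genes and 14.9% of genes above the median level, where 73 of the 75 members lie. No member fell by limma, beside 6.87% of all genes. At an unadjusted p under 0.05, 40 members were higher and 1 lower, beside 3027 and 2662 of the 23102 genes. The median change was 0.27 over the large subunit and 0.12 over the small subunit, against 0.01 over all genes. In bulk RNA, a different share of cells and a different amount of transcript per cell cannot be told apart. The changes were modest: those that passed ran between 1.20-fold and 1.96-fold, with a median of 1.33-fold, and 0 reached 2-fold.

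**Figure D1:**
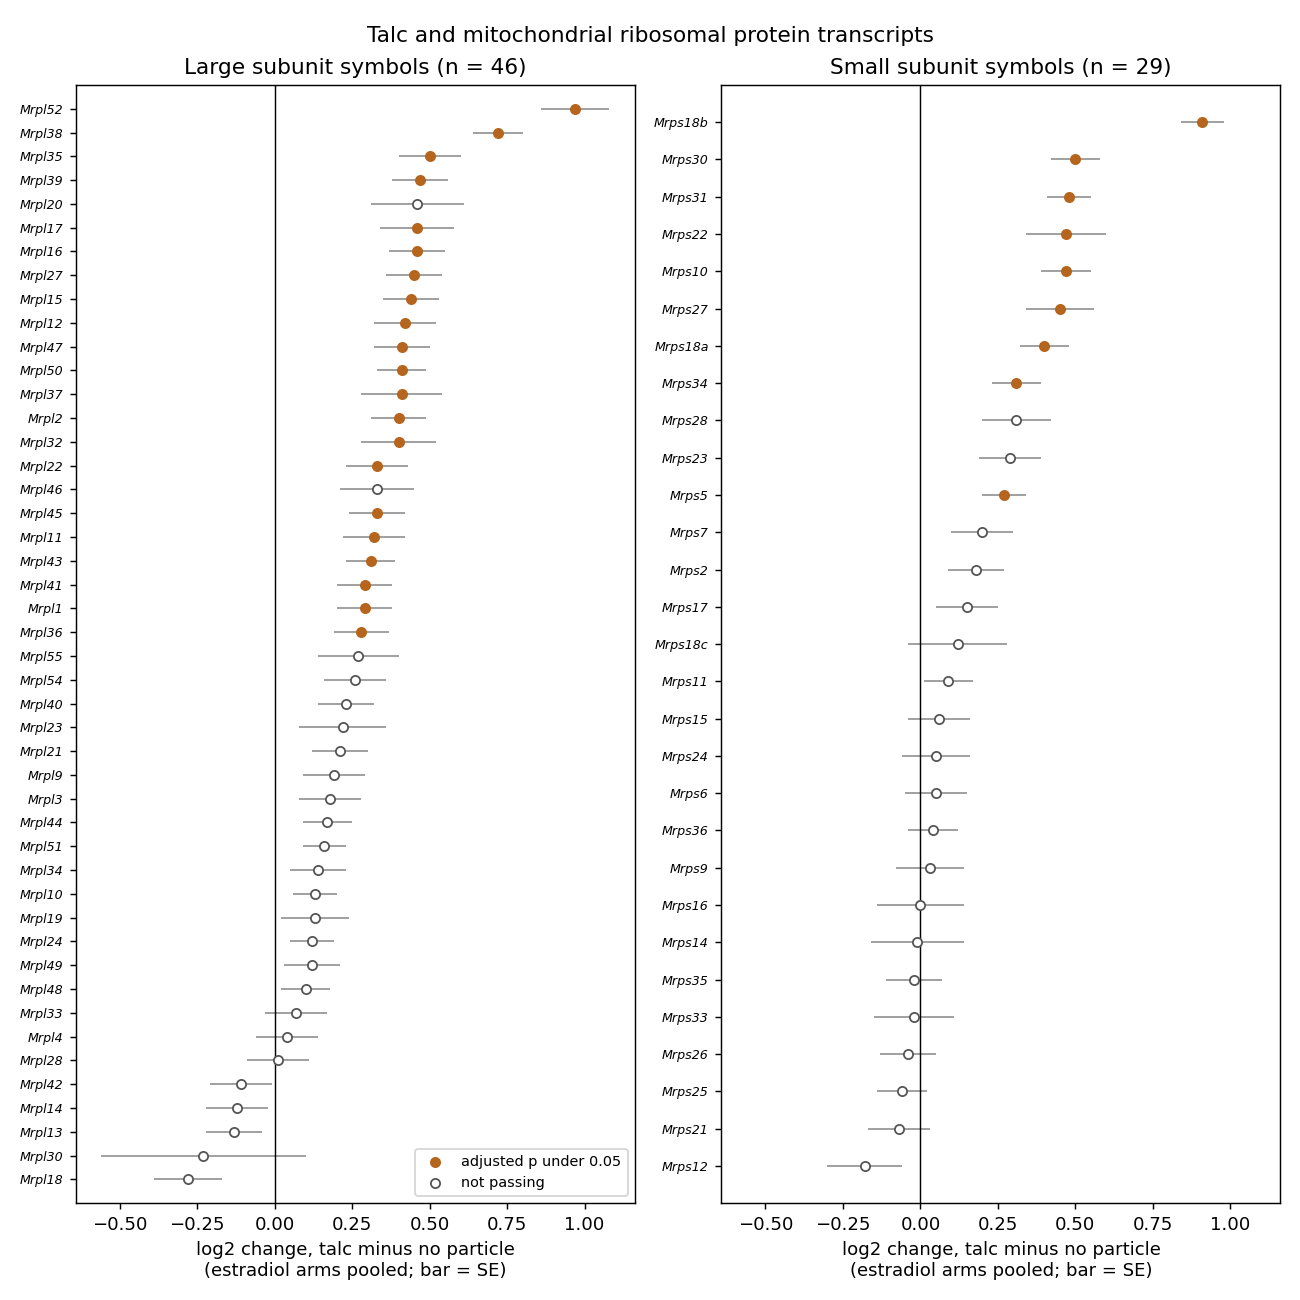
The log2 change with talc (x axis, talc minus no particle, estradiol arms pooled, 6 arrays against 6) is plotted for each of the 75 measured members, large subunit symbols left and small subunit symbols right, with bars of 1 standard error. Filled points, 30 in all, passed at an adjusted p under 0.05 and all lie right of 0, from 0.27 for Mrps5 to 0.97 for Mrpl52.

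Mrpl52, a large subunit protein found only in mitochondria, had the highest change of all members. Its log2 intensity was 8.86, 8.84 and 8.98 with talc and 9.08, 8.87 and 9.0 with talc plus estradiol, against 7.63, 8.14 and 8.20 with estradiol and 7.80, 8.01 and 8.03 with vehicle. In the TiO2 groups it was 7.86, 8.45 and 8.04 without estradiol and 8.13, 8.14 and 8.06 with it. All 6 talc arrays stood above the other 12, with a gap to the highest of them, a TiO2 array. The pooled talc change was 0.97 ± 0.11 (SE; limma adjusted p = 9.5e-06), and all 5 of the gene's probe sets were higher with talc, by 0.73 to 1.08.

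Mrps18b encodes 1 of 3 mammalian paralogs of the bacterial small subunit protein S18, and it had the highest change of the small subunit symbols. It measured 9.07, 8.97 and 9.11 with talc and 9.07, 8.93 and 9.16 with talc plus estradiol. Without particles it measured 8.26, 8.23 and 8.17 with estradiol and 8.05, 8.11 and 8.05 with vehicle, and in the TiO2 arms it ran between 8.15 and 8.41. The talc arrays again lay clear of every other array. The pooled change of 0.91 ± 0.07 (limma adjusted p = 1.7e-07) had the smallest p of the family, and the gene had the smallest p among members in each of the 4 comparisons of a talc group with a group lacking talc.

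The other paralogs of Mrps18b had smaller changes, and the differences between paralogs were not tested. Mrps18a, whose protein sits in the large subunit despite its name, ran between 8.01 and 8.25 in the talc arms, against 7.54 to 7.85 without particles, and rose by 0.40 ± 0.08 (limma adjusted p = 0.0018). Mrps18c was dim, with a mean level at the 49.5th percentile of genes, and its talc arrays (4.35 to 5.06) overlapped those without particles. Its change was 0.12 ± 0.16 (limma adjusted p = 0.76), and it was negative in 3 of the probe set alternatives, so no direction can be given for it.

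Mrpl38, a protein of the central protuberance of the large subunit, was the next highest. Its talc arrays read 8.44, 8.42 and 8.38, and those with talc plus estradiol 8.53, 8.48 and 8.59, against 7.51, 7.60 and 7.84 with estradiol and 7.66, 7.91 and 8.01 with vehicle. The 6 talc arrays were the highest 6 of the 18, since the TiO2 arms reached no higher than 7.91. The pooled change was 0.72 ± 0.08 (limma adjusted p = 1.4e-05), with 11 of 11 probe sets higher.

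Mrps30 carries a small subunit symbol, but its protein belongs to the large subunit in mammalian structures. It stood between 7.76 and 7.88 in the 6 talc arrays, against 7.10 to 7.50 in the 6 arrays without particles, and changed by 0.50 ± 0.08 (limma adjusted p = 0.00038). In TiO2 plus estradiol it read 7.08, 7.02 and 6.92, and that group had its lowest mean. Mrps31, a protein of the head of the small subunit, measured 8.12, 7.95 and 7.95 with talc and 7.78, 7.89 and 7.80 with talc plus estradiol, against 7.26, 7.29 and 7.47 with estradiol and 7.50, 7.48 and 7.60 with vehicle. It rose by 0.48 ± 0.07 (limma adjusted p = 0.00015), with no overlap between the talc arrays and the rest.

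**Figure D2:**
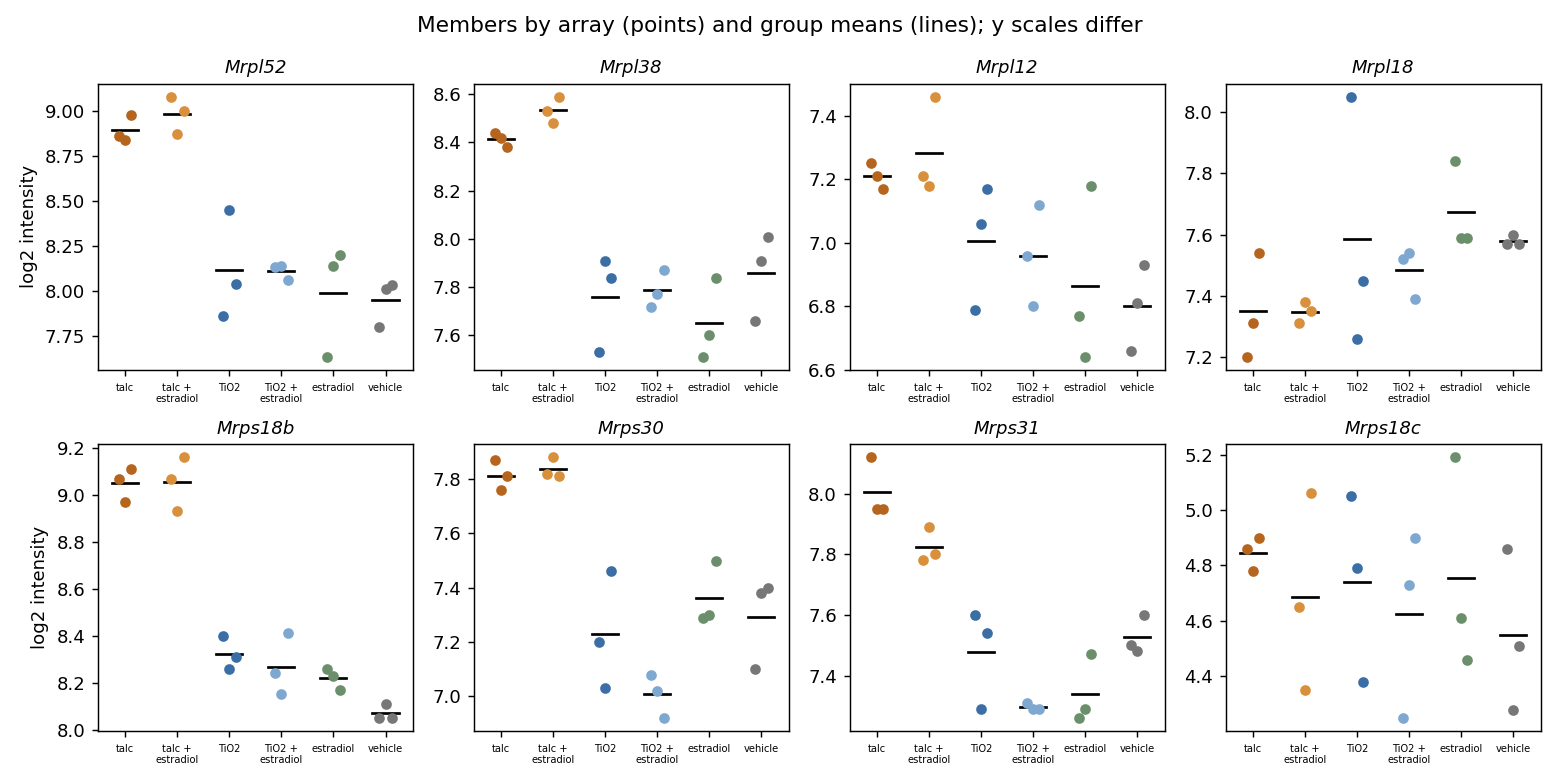
Log2 intensity (y axis, scales differ between panels) of 8 members in each array (points) with group means (lines), over the 6 groups on the x axis. Mrpl52, Mrpl38, Mrps18b, Mrps30 and Mrps31 have all 6 talc points above the other 12, Mrpl12 and Mrps18c overlap, and Mrpl18 lies lower in talc arrays than in arrays without particles.

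Among the large subunit members, Mrpl12, a stalk protein that has also been reported to bind the mitochondrial RNA polymerase, rose by 0.42 ± 0.10 (limma adjusted p = 0.0086). All 10 of its probe sets were higher with talc, but 1 estradiol array, at 7.18, reached into the talc range of 7.17 to 7.46. Mrpl35 rose by 0.50 ± 0.10, and its talc arms (6.81 to 7.34) lay above the arrays without particles (6.28 to 6.75). Both belong to the bacterial type of ribosomal protein.

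The remaining risers of the large subunit fall into the same 3 origins. Of those with counterparts in all ribosomes, Mrpl16 rose by 0.46 ± 0.09, Mrpl15 by 0.44 ± 0.09, Mrpl47 by 0.41 ± 0.09 and Mrpl2, a protein near the peptidyl transferase centre, by 0.40 ± 0.09. Mrpl22 (0.33 ± 0.10), the stalk-base protein Mrpl11 (0.32 ± 0.10) and the stalk protein Mrpl1 (0.29 ± 0.09) were smaller. The bacterial type was represented by Mrpl17 (0.46 ± 0.12), Mrpl27 (0.45 ± 0.09), Mrpl32 (0.40 ± 0.12), which is cut by a mitochondrial inner membrane protease before assembly, and Mrpl36 (0.28 ± 0.09).

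Of the mitochondria-specific large subunit proteins, Mrpl39, a relative of threonyl-tRNA synthetase, rose by 0.47 ± 0.09, with talc arrays at 7.84 to 8.07 and arrays without particles at 7.17 to 7.62. Mrpl50 (0.41 ± 0.08) and Mrpl37 (0.41 ± 0.13) followed. Mrpl45, which lies near the exit of the nascent chain, rose by 0.33 ± 0.09, Mrpl43 by 0.31 ± 0.08 and Mrpl41 by 0.29 ± 0.09. Limma adjusted p-values of these large subunit genes ran up to 0.041, that of Mrpl1 and Mrpl36.

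On the small subunit, the other risers were Mrps22 (0.47 ± 0.13) and Mrps27, a pentatricopeptide repeat protein (0.45 ± 0.11), both mitochondria-specific, and Mrps10 (0.47 ± 0.08), which has counterparts in all ribosomes. The mitochondria-specific Mrps34 rose by 0.31 ± 0.08 and the universal Mrps5 by 0.27 ± 0.07. Mrps10 arrays ran from 7.81 to 8.21 with talc, against 7.44 to 7.69 without particles, and did not overlap. Those of Mrps22, Mrps27, Mrps34 and Mrps5 did.

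By origin, 15 of 28 mitochondria-specific members rose in the pooled comparison (53.6%, median change 0.31), 6 of 19 of the bacterial type (31.6%, median 0.21) and 9 of 27 with counterparts in all ribosomes (33.3%, median 0.15). On the small subunit, 7 of 12 mitochondria-specific members rose, 0 of 5 of the bacterial type and 2 of 11 of the universal type. On the large subunit the counts were 8 of 16, 6 of 14 and 7 of 16. With members placed by where the protein sits in mammalian structures, moving Mrps18a and Mrps30 to the large subunit, 23 of 48 large and 7 of 26 small subunit proteins rose. The classes come from general knowledge of ribosomal protein families, with Mrps18a and Mrps18b counted as mitochondria-specific and Mrps18c as the bacterial type. With all 3 paralogs of S18 in the bacterial type, a choice made after seeing the data, 13 of 26 mitochondria-specific members rose (median 0.30) and 8 of 21 of the bacterial type (median 0.27). On the small subunit the counts were then 5 of 10 and 2 of 7. The differences between these classes were not tested.

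The talc and no-particle arrays did not overlap, with talc higher, in 18 of the 75 members. This stands beside 5.82% of all genes and 1316 of the 11551 genes above the median level. The arrays did not overlap with talc lower in 1 member, Mrpl18, beside 5.18% of all genes and 1158 of those 11551. Mrpl18 belongs to the family that binds 5S RNA in other ribosomes. It measured 7.20, 7.31 and 7.54 with talc and 7.31, 7.38 and 7.35 with talc plus estradiol, against 7.84, 7.59 and 7.59 with estradiol and 7.57, 7.60 and 7.57 with vehicle. Its change was -0.28 ± 0.11 (limma adjusted p = 0.11), with 1 of 9 probe sets higher. The adjusted p was 0.026 when the TiO2 arrays were left out of the fit and 0.047 when genes below the median level were dropped.

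The other members with the lowest changes did not pass either. On the large subunit these were Mrpl30 (-0.23 ± 0.33), which has a single probe set and the widest spread of the family, Mrpl13 (-0.13 ± 0.09) and Mrpl14 (-0.12 ± 0.10). On the small subunit they were the decoding-centre protein Mrps12 (-0.18 ± 0.12), Mrps21 (-0.07 ± 0.10), Mrps25 (-0.06 ± 0.08) and Mrps26 (-0.04 ± 0.09). Of the 6 probe sets of Mrps12, 5 were higher with talc and 1 was lower by 1.64 on the log2 scale, and its brightest probe set changed by 0.19. Directions are therefore not given for Mrps12, nor for Mrpl14 and Mrps26, whose signs also turned in other summaries of their probe sets.

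The calls depended on how probe sets were summarised. Of the 30 members that rose, 18 also passed when a gene's brightest probe set stood for it, 17 with the median over its probe sets and 29 with the mean over its probe sets above the median level. In some risers the brightest probe set changed little, by 0.03 in Mrpl11, 0.07 in Mrpl27 and 0.1 in Mrpl45. Of 592 member probe sets, 447 (75.5%) lay above the median probe set, and each gene had 1 to 20, with a median of 7. In the 30 members that rose, 229 of 244 probe sets (93.9%) were higher with talc, and in the other 45 members 225 of 348 (64.7%), beside 50.3% of all single-symbol probe sets. The first share was fixed in part by the choice of members that rose. By level, Mrpl24 (mean 9.03), Mrpl42 (8.76) and Mrpl43 (8.72) had the highest log2 intensities and Mrps36 (3.62), Mrps18c (4.70) and Mrpl33 (4.77) the lowest, which are properties of their probe sets and give no order of abundance. Mrps36 is today assigned to an enzyme complex, not to the ribosome, and it changed by 0.04 ± 0.08. Mrpl53 had no probe set of its own, only 6 shared with Ccdc142, whose group means ran between 7.82 and 7.96.

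In the arm without estradiol, 13 of 75 members were higher with talc than with vehicle, 8 large and 5 small, and 0 were lower (limma; 17.3%, beside 3.94% of all genes and 7.16% of genes above the median level). At an unadjusted p under 0.05, 25 of 75 members were higher and 0 lower, beside 2309 and 2276 of the 23102 genes. After adjustment, 4.52% of all genes fell. The median change was 0.19 over the large and 0.09 over the small subunit. The count was sensitive to single arrays: 6 members passed without talc replicate 1, 7 without talc replicate 3, 5 without vehicle replicate 1 and 8 without vehicle replicate 2. The 13 were Mrpl2, Mrpl15, Mrpl16, Mrpl35, Mrpl38, Mrpl39, Mrpl47, Mrpl52, Mrps10, Mrps18a, Mrps18b, Mrps30 and Mrps31. Mrpl35 arrays read 6.91, 6.98 and 7.34 with talc, against 6.28, 6.39 and 6.39 with vehicle, a change of 0.72 ± 0.14 (limma adjusted p = 0.0035) without overlap.

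In the arm with estradiol, 17 of 75 members were higher with talc plus estradiol than with estradiol, 10 large and 7 small, and 0 were lower (limma; 22.7%, beside 4.13% of all genes and 7.79% of genes above the median level). Unadjusted, 37 were higher and 0 lower, beside 2413 and 2000 of the 23102 genes. After adjustment, 3.0% of all genes fell. The medians were 0.32 and 0.23. The count was 7, 11 and 6 without talc plus estradiol replicates 1, 2 and 3, and 8 and 5 without estradiol replicates 1 and 2. Mrpl37, a mitochondria-specific large subunit protein, passed here (0.73 ± 0.18, limma adjusted p = 0.018), with 7.64, 7.08 and 7.25 with talc plus estradiol, against 6.87, 6.70 and 6.23 with estradiol.

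These 2 comparisons share no array. The same 10 members passed in both arms, 3 passed in talc against vehicle and not in the other (Mrpl2, Mrpl35 and Mrpl47), and 7 the other way round (Mrpl22, Mrpl27, Mrpl37, Mrpl43, Mrpl50, Mrps5 and Mrps34). Signs were positive in both for 53 members and negative in both for 7. Over all 23102 genes the counts were 7475 and 6855, and over the 11551 genes above the median level 4529 and 4001. Across the 75 members the changes in the 2 arms had a Pearson r of 0.66 and a Spearman rho of 0.67, a description over genes that share arrays and are not independent. Over the 11551 genes above the median level the values were 0.76 and 0.69. The interaction of talc and estradiol passed for 0 of 75 members, so a pass in 1 arm is not shown to be a difference between the arms.

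**Figure D3:**
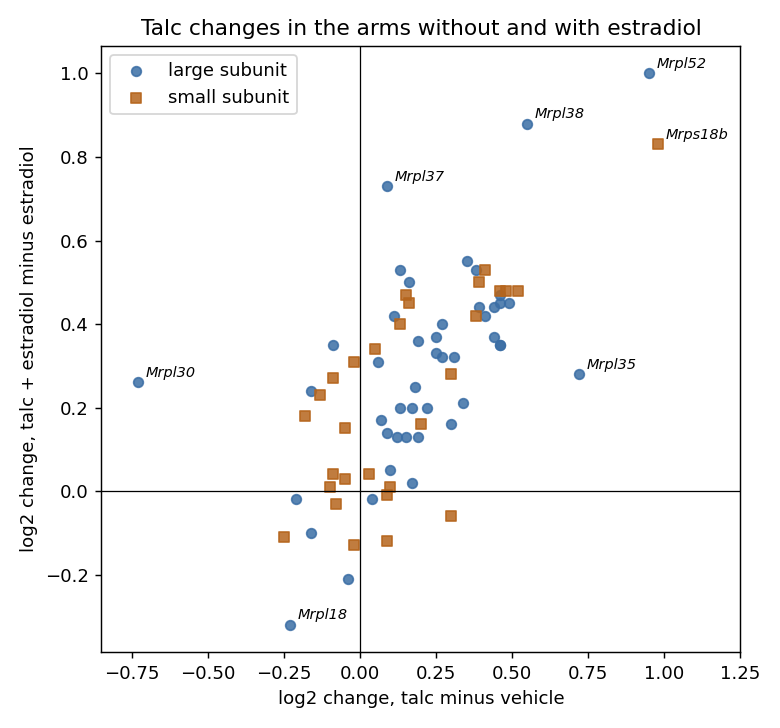
Each point is a member, with its log2 change in talc minus vehicle (x axis) and in talc plus estradiol minus estradiol (y axis), large subunit as circles and small subunit as squares. Most points (53 of 75) lie right of and above 0, beside 7475 of all 23102 genes, which are not drawn. Mrpl52, Mrps18b and Mrpl38 are far out in both, and Mrpl35, Mrpl37 and Mrpl30 lie away from the diagonal.

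Talc also stood above the other particle. Against TiO2, 14 of 75 members were higher with talc, 8 large and 6 small, and 0 lower (limma; 18.7% higher, beside 4.61% of all genes and 8.08% of genes above the median level). Of all genes, 5.35% were lower. Unadjusted, 22 members were higher and 1 lower, beside 2663 and 2533 of the 23102 genes. The count was 8, 9 and 7 without talc replicates 1, 2 and 3 and 7 without TiO2 replicate 1 or TiO2 replicate 2. Without TiO2 replicate 1, 1 member was also lower.

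With estradiol in both arms, 17 members were higher in talc plus estradiol than in TiO2 plus estradiol, 9 large and 8 small, and 0 lower (limma; 22.7% higher, beside 6.66% of all genes and 12.9% of genes above the median level). Of all genes, 2.87% were lower. Among genes above the median level, 62.4% had a positive change, with a median of 0.08, beside 86.7% and 0.26 for the members. The count of members was lower with quantile normalization, as given in the closing section. Unadjusted, 32 members were higher and 0 lower, beside 3239 and 2190 of the 23102 genes. After adjustment, 11 and 9 members passed without talc plus estradiol replicates 2 and 3. Mrps7 (0.57 ± 0.14) and Mrpl46 (0.54 ± 0.16) passed in this comparison and in no other. Mrps30 had a change of 0.83 ± 0.12 and Mrps10 of 0.74 ± 0.12.

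Mrpl38, Mrpl39, Mrpl52, Mrps10, Mrps18b, Mrps30 and Mrps31 passed in all 4 comparisons of a talc group with a group lacking talc. Of the 75 members, 32 passed in at least 1 of the 5 talc comparisons, counting the pooled one, and 43 in none. Passes over several comparisons were not counted for all genes. These counts, and that of the 10 members that passed in both arms, therefore stand without a background share. Comparisons with the same talc arrays are not independent of each other.

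TiO2 was not accompanied by a change of any member that passed. Against vehicle, 0 of 75 members passed (limma, beside 0.0% of all genes higher and 0.0% lower). At an unadjusted p under 0.05, 5 were higher and 0 lower, beside 896 and 990 of the 23102 genes. Of the 11551 genes above the median level, 581 were higher and 476 lower unadjusted. With estradiol in both arms 0 members passed (beside 0.00433% higher and 0.0% lower). Unadjusted, 2 were higher and 1 lower, beside 886 and 1173 of the 23102 genes. The members' median changes were 0.02 in both. By subunit, the medians were 0.07 (large) and 0.01 (small) against vehicle, and 0.04 and -0.04 in the estradiol arms. The smallest p belonged to Mrpl2 against vehicle (0.38 ± 0.13, limma adjusted p = 0.47) and to Mrps30 in the estradiol arms (-0.36 ± 0.12, limma adjusted p = 0.42).

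These are not statements that TiO2 left the family as it was. The 95% interval of a member's change had a median half-width of 0.29 in either comparison, and it lay within a 2-fold change in each direction for 74 of 75 members, all but Mrpl30. Mrps18b, for example, measured 8.40, 8.26 and 8.31 with TiO2, against 8.05, 8.11 and 8.05 with vehicle, without overlap, at 0.25 ± 0.10 (limma adjusted p = 0.51). Members without overlap between TiO2 and vehicle numbered 8 higher and 0 lower, beside 6.01% and 6.42% of all genes. Of the 11551 genes above the median level, 943 were higher and 734 lower without overlap.

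Estradiol likewise gave no member that passed. Against vehicle, 0 of 75 passed (limma, beside 0.0% of all genes in each direction). Unadjusted, 0 were higher and 1 lower, beside 581 and 543 of the 23102 genes. The member with the smallest p was Mrpl46 (-0.38 ± 0.16). Added to talc, estradiol gave 0 passes (beside 0.0% and 0.0%). Unadjusted, 3 members were higher and 0 lower, beside 731 and 790 of the 23102 genes. The smallest p was that of Mrps11 (0.33 ± 0.11, limma adjusted p = 0.71). Its arrays averaged 6.75 ± 0.01 with talc plus estradiol and 6.43 ± 0.03 with talc (SD, n = 3 each). Added to TiO2, estradiol gave 0 passes (beside 0.00433% and 0.00433%). Unadjusted, 1 member was higher and 3 were lower, beside 1475 and 1537 of the 23102 genes. The smallest p was that of Mrpl32 (-0.44 ± 0.17, limma adjusted p = 0.29). In this comparison 28.8% of genes above the median level had a positive change, beside 29.3% of members. Large and small subunit medians were -0.03 and -0.06 for estradiol against vehicle. They were 0.01 and 0.06 with estradiol added to talc, and -0.07 and -0.09 with it added to TiO2.

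The interaction terms, which ask whether estradiol alters the response to a particle, passed for 0 of 75 members with talc and 0 with TiO2 (limma, beside 0.0% in each direction for both). The unadjusted counts were 2 higher and 1 lower with talc and 0 higher and 1 lower with TiO2. Over all 23102 genes they were 687 higher and 773 lower with talc and 883 higher and 977 lower with TiO2. Mrpl37 had the smallest p with talc (0.64 ± 0.25, limma adjusted p = 0.70) and Mrps24 with TiO2 (-0.47 ± 0.21, limma adjusted p = 0.61). The median half-width of the 95% interval was 0.41, so moderate interactions were not detectable with 3 arrays a group.

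A summary per array puts the groups side by side. For each array the median over members of the deviation from each gene's own mean was taken. It lay between 0.09 and 0.16 with talc and between 0.12 and 0.21 with talc plus estradiol. With TiO2 it ran from -0.07 to 0.04, with TiO2 plus estradiol from -0.13 to 0.05, with estradiol from -0.16 to 0.00 and with vehicle from -0.11 to 0.01. All 6 talc arrays were thus above the other 12. In all 6 groups the highest array was replicate 3, and in all but the TiO2 group that array was also the highest of its group for cytosolic ribosomal protein genes. Replicate numbers follow the order of deposit within a group, and the labels pair no arrays between groups. In each group, replicate 3 carries the lowest array number in the labels. The part of this pattern in the results was not tested.

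**Figure D4:**
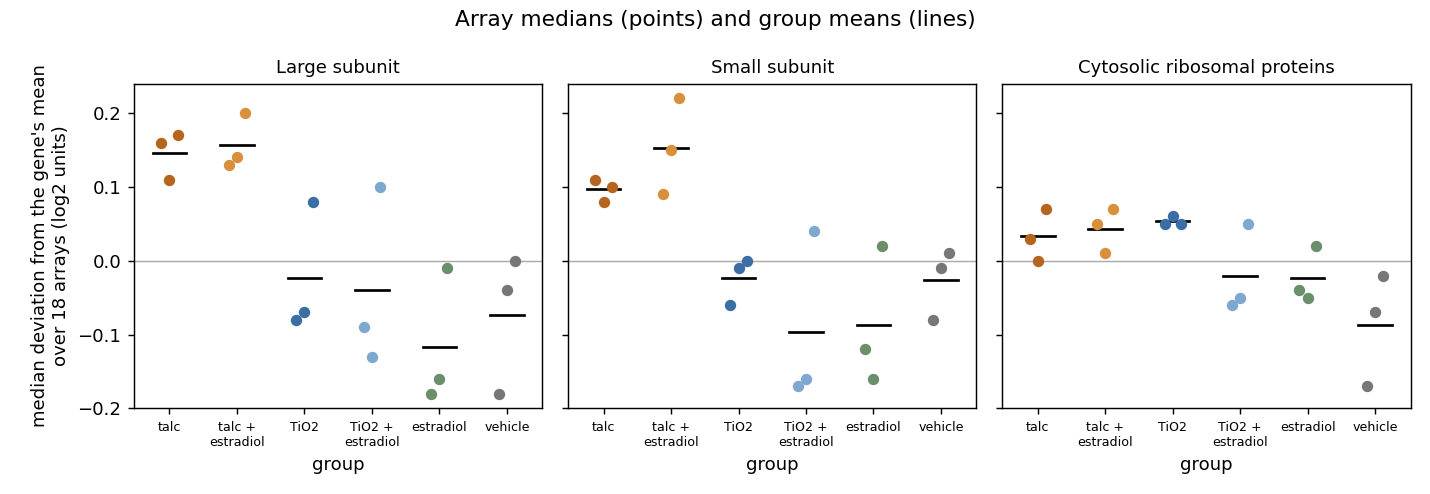
Median deviation from each gene's 18-array mean (y axis, log2 units) in each array (points) with group means (lines), for large subunit members, small subunit members and cytosolic ribosomal protein genes, over the 6 groups (x axis). The talc arrays lie between 0.11 and 0.20 for the large subunit, where the highest other array reaches 0.10, and between 0.08 and 0.22 for the small subunit, where it reaches 0.04. The cytosolic genes overlap between groups.

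The wider apparatus of mitochondrial translation was examined with lists of genes chosen by function. Of 25 factors that assemble the mitochondrial ribosome, 10 rose with talc in the pooled comparison and 0 fell (40.0%, median 0.16). The shares of this and the following lists stand beside 7.92% of all genes and 14.9% of genes above the median level that were higher, and 6.87% of all genes that were lower. The DEAD-box RNA helicase Ddx28, needed for the large subunit, rose by 0.68 ± 0.09, with arms averaging 6.53 with talc and 5.85 without particles. The pseudouridine synthase Rpusd4 (0.50 ± 0.08), the GTPase Mtg1 (0.41 ± 0.07) and the ribosomal RNA methyltransferase Mrm3 (0.51 ± 0.09) also rose (limma adjusted p up to 0.0008). Each of these 4 passed in both arms taken alone.

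Of 5 measured ribosome proteins with other symbols, 2 rose and 0 fell: the pentatricopeptide protein Ptcd3 (0.50 ± 0.09) and Gadd45gip1 (0.30 ± 0.08). Dap3, a GTP-binding protein of the small subunit, had a change of 0.01 ± 0.09. Mrpl57 and Mrpl58, which the platform lists under older symbols and which the rule therefore leaves out, had changes of 0.06 ± 0.08 and 0.02 ± 0.07 and did not pass.

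Of 17 mitochondrial translation factors, 3 rose (17.6%) and 0 fell: the ribosome recycling factor Gfm2 (0.46 ± 0.07), the tRNA modifier Mto1 (0.47 ± 0.09) and the formyltransferase Mtfmt (0.29 ± 0.08), which prepares the initiator tRNA. Of 16 mitochondrial aminoacyl-tRNA synthetases, 5 rose (31.2%) and 1 fell. The tyrosine enzyme Yars2 rose by 0.69 ± 0.11, Ears2 by 0.41 ± 0.09, Rars2 by 0.33 ± 0.08 and Tars2 by 0.28 ± 0.08, and the cysteine enzyme Cars2 fell by 0.29 on the log2 scale (limma adjusted p = 0.014). Of 12 genes for transcription and replication of mitochondrial DNA, 2 rose (16.7%) and 0 fell, the elongation factor Tefm (0.46 ± 0.10) and the helicase Twnk (0.26 ± 0.08).

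The products of mitochondrial translation join nuclear-encoded subunits of the respiratory chain. Of 71 such nuclear genes, 7 rose and 0 fell (9.86%, median 0.10), a share near that of all genes and below that of genes above the median level. The highest were Cyc1 of complex III (0.59 ± 0.10) and the electron carrier cytochrome c, Cycs (0.57 ± 0.09), and Cox7b (0.48 ± 0.14) and the complex II subunit Sdhb (0.29 ± 0.07) also rose. Of 13 regulators of mitochondrial biogenesis, 2 rose (15.4%) and 1 fell: the coactivator Pprc1 rose by 0.62 ± 0.07 (limma adjusted p = 1.5e-05) and Max by 0.23 ± 0.07, and Gabpb2 fell by 0.33 on the log2 scale.

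Of 68 genes that match a name pattern for cytosolic ribosomal proteins, 8 rose and 0 fell (11.8%, median 0.08), beside the same 7.92% and 14.9%. Rps19bp1 (0.85 ± 0.07) and Rpl7l1 (0.68 ± 0.13), a partner of a ribosomal protein and a factor of ribosome production, are not themselves structural proteins of the mature ribosome. Rpl34 (0.59 ± 0.10) and Rpl37a (0.46 ± 0.08) are. Differences in share between the lists were not tested.

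**Figure D5:**
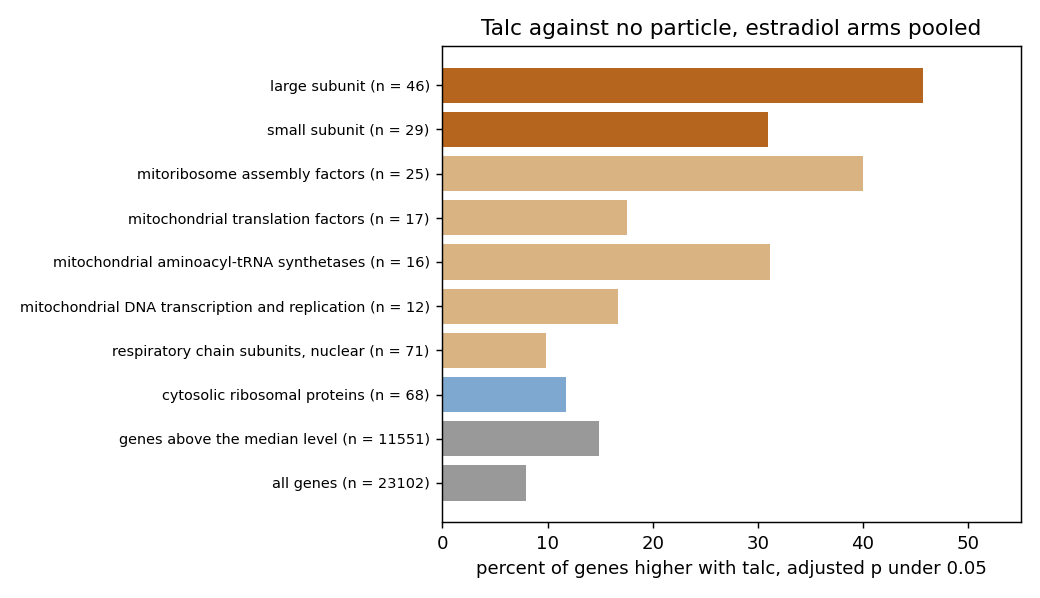
Percent of genes higher with talc at a limma adjusted p under 0.05 (x axis, pooled comparison, 6 talc arrays against 6 without particles) for the large and small subunits, 6 other lists, genes above the median level and all genes. The large subunit stands at 45.7%, assembly factors at 40.0%, the small subunit at 31.0%, cytosolic ribosomal proteins at 11.8% and all genes at 7.92%.

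For each member the nearest protein-coding gene with a value was taken, at any distance, and most of these neighbours did not pass the test. The nearest neighbour with a value rose for 6 and fell for 2 of the 30 members that rose, with a median neighbour change of 0.04, and for the other 45 members 5 rose and 3 fell, with a median of 0.05, beside 7.92% of all genes higher and 6.87% lower and a median of 0.01. Among neighbours of members that rose, the largest change was that of Ppp1r10, a regulatory subunit of protein phosphatase 1 beside Mrps18b. It rose by 0.94 ± 0.11 (limma adjusted p = 1.9e-05). Beside members that did not pass, Ncapd2 near Mrpl51 changed by -0.89 ± 0.06, Slc5a3 near Mrps6 by 0.83 ± 0.22 and Icam1 near Mrpl4 by 0.79 ± 0.06. Among members whose promoter window is shared head to head with another gene, 9 had risen. Of their partners 3 rose, Psma2 beside Mrpl32 (0.31 ± 0.07), Twnk beside Mrpl43 (0.26 ± 0.08) and Zfp661 beside Mrps5 (0.28 ± 0.08), and Eme1 beside Mrpl27 fell by 0.29 on the log2 scale. Of the partners of 12 other members, 1 rose and 0 fell. Changes were positive in 5 of the 9 partners (median 0.17) and in 10 of the 12 (median 0.1), and the difference was not tested.

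Promoter windows were at hand for 27 of the 30 members that rose and for 39 of the others. The NRF1 core was found in the 250 bases before the start of 5 of the 27 (18.5%) and 3 of the 39 (7.69%), against 3.32% of 17491 protein-coding genes and 5.22% of those above the median level. The ETS motif was found in 8 (29.6%) and 8 (20.5%), against 10.2% and 16.6%. YY1 was found in 2 (7.41%) and 2 (5.13%), against 1.77% and 2.47%, and the E-box in 3 (11.1%) and 2 (5.13%), against 7.61% and 10.1%. These shares rest on few genes, and a match is a run of letters, not a shown binding site.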

How the data were processed

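Total RNA of J774 cells was measured on Affymetrix mouse arrays. The authors deposited 1 linear intensity per probe set and array, and RMA is named in the submitters' processing notes, without its version or summary level. log2 was taken here of the deposited intensity, since the log2 values assumed at the planning stage turned out to be linear. A gene's value is the mean log2 intensity of its single-symbol probe sets (233753 of 269751) named through the platform annotation, with 2247 older symbols updated through the RefSeq gene table. No gene was filtered out. All 18 arrays entered 1 limma model (limma 3.58.1, R 4.3.3) with a mean per group and 12 contrasts, with Benjamini-Hochberg adjustment over 23102 genes per contrast and an adjusted p under 0.05 as the threshold. Precision is limited by the number of arrays: median standard errors were 0.151 for 3 arrays against 3, 0.107 pooled and 0.213 for interactions. The fit was tested on simulated arrays with known changes. Their noise was drawn independently for each gene and array, so shifts shared by many genes of an array were not covered.

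Members named with values are those that passed in any contrast, the 4 highest and 4 lowest of each subunit with talc, the 3 brightest and 3 dimmest, the Mrps18 paralogs and the smallest p of each contrast. From each other list, up to 4 passing genes per direction are named. Members and lists were chosen with earlier results of these data known. Promoter windows are RefSeq's (GRCm38.p6). The alternatives tried were other summaries of probe sets, a level filter, normalizations, variance settings, array weights, fits on the compared arrays alone and leaving out each array in turn.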

Additional observations from a re-analysis of the deposited data

How the results depend on the processing

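No paired analysis was made, because array numbers in the labels run on from group to group and tie no array to an array of another group. Position within a group was not entered in any fit. Of the 30 members higher with talc in the pooled comparison, 11 passed under every alternative (Mrpl12, Mrpl15, Mrpl16, Mrpl35, Mrpl38, Mrpl50, Mrpl52, Mrps10, Mrps18a, Mrps18b and Mrps30), 19 lost the call under at least 1, and 0 changed sign. Of the 30, 18 passed with the brightest probe set and 17 with the median over probe sets. With 3 arrays a group, single arrays move the counts of the simple comparisons. Fewer arrays in a fit leave fewer degrees of freedom, and for the other changes below the cause was not tested.

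Leaving out 1 array at a time, the counts of higher members ran from 5 to 9 for talc against vehicle, from 5 to 18 for talc plus estradiol against estradiol, from 24 to 28 pooled, from 7 to 13 for talc against TiO2 and from 9 to 17 for talc plus estradiol against TiO2 plus estradiol. The count lower than TiO2 ran from 0 to 1. The small subunit median in talc plus estradiol against estradiol ran from 0.16 to 0.26.

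With probe sets above the median level, the counts of higher members were 20 for talc against vehicle, 28 for talc plus estradiol against estradiol and 31 for talc plus estradiol against TiO2 plus estradiol. With the brightest probe set they were 9 for talc against TiO2 and 8 for talc plus estradiol against TiO2 plus estradiol, where 1 was lower. With the median over probe sets they were 8, 6 and 11 for talc plus estradiol against estradiol, talc against TiO2 and talc plus estradiol against TiO2 plus estradiol. Fits on the compared arrays alone gave 8, 7, 5 and 8 in the 4 simple comparisons in the order of the report, and 1 lower pooled. With genes above the median level, 26 were higher in talc plus estradiol against estradiol and 1 was lower both pooled and in talc against TiO2. Subtracting array medians gave 8 for talc against vehicle and 9 for talc against TiO2, quantile normalization gave 7 for talc plus estradiol against TiO2 plus estradiol, and a variance trend gave 1 lower for talc against TiO2. The small subunit median was 0.18 (talc against vehicle) and 0.19 (pooled) with the brightest probe set, 0.33 (talc plus estradiol against estradiol) and 0.22 (pooled) with probe sets above the median, and 0.22 (pooled) with the median over probe sets.

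Signs turned for single members only under other summaries of probe sets, with 1 exception. In the pooled comparison, with the brightest probe set, Mrpl14 was at 0.02, Mrps12 at 0.19, Mrps18c at -0.16 and Mrps26 at 0.09. With probe sets above the median, Mrps12 was at 0.15, Mrps18c at -0.09 and Mrps26 at 0.07, and with the median Mrps18c was at -0.08 and Mrps26 at 0.07. The exception was Mrps26 at 0.01 without vehicle replicate 3. With the brightest probe set, Mrps30 was at 0.06 in TiO2 plus estradiol against estradiol, Mrpl46 at 0.00 in talc plus estradiol against TiO2 plus estradiol, Mrpl37 at -0.36 in the interaction with talc and Mrps24 at 0.03 in that with TiO2. With the median, Mrpl47 was at -0.05 in talc plus estradiol against TiO2 plus estradiol.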
